A study of Homo sapiens with 2 samples.

Results

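The genes of 10 enzymes of glycolysis, the pathway from glucose to lactate, were examined for contacts of their RNA with DDX18, a nucleolar helicase of the DEAD-box family. They were GPI, ALDOA, TPI1, GAPDH, PGK1, PGAM1, ENO1, PKM, LDHA and LDHB, chosen by name with earlier results of these data known. Each was matched to the peak list by its Entrez identifier in the name of the peak. All 10 had at least 1 listed peak, with 59 peaks in total, out of 16095 peak positions in 6695 genes. DDX18 carrying a triple FLAG tag was immunoprecipitated through the tag from H9, a long-established line of human embryonic stem cells grown here on irradiated mouse fibroblasts, after a single exposure to 160 mJ/cm2 of ultraviolet light at 254 nm. The 2 samples, replicates of 1 group that both express the tagged protein under normal culture, share 1 deposited list. The list gives no value per sample, so no spread between replicates can be printed, and the reads per sample are unknown. Input RNA and untagged cells were not analysed here, and there is no second condition to compare.

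Glycolysis splits the sugar glucose and harvests energy from it in the cytosol. Its enzymes are among the more abundant proteins of growing cells, and human embryonic stem cells in culture are known to draw much of their energy from it. iCLIP freezes contacts between a protein and RNA with ultraviolet light, recovers the bound fragments and reads where they lie. A contact found in an mRNA depends on how much of that mRNA the cell holds, and RNA abundance was not measured in these data.

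Every peak comes with a height, deposited by the authors as an unscaled whole number, and a second number in its name, written PH0, which is read here as the height expected in that gene. The list holds 1 PH0 value per gene and does not define it. Heights have no replicate error. Where an interval is given it is the exact 95% Poisson interval that would hold if the height counted independent reads, and it covers counting error only.

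A peak was listed in 10 of 10 genes, against 31.0% of 20052 protein-coding genes, a background that includes genes silent in these cells. All 10 had at least 2 peaks, against 14.7% of protein-coding genes, and 7 had at least 4, against 5.47%. The median of the highest peak was 30.5 over the 10 genes and 7 over the 6218 protein-coding genes with a peak (quartiles 6 and 10). Heights of the 59 peaks ran from 7 to 94. ENO1 stood at the top and LDHA at the bottom of the 10. These counts describe the 10 genes, which are highly expressed as a rule, and their part in the pathway was not separated from their mRNA level. Because the genes were chosen with earlier results known, the contrast with the background is no test.

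**Figure D1:**
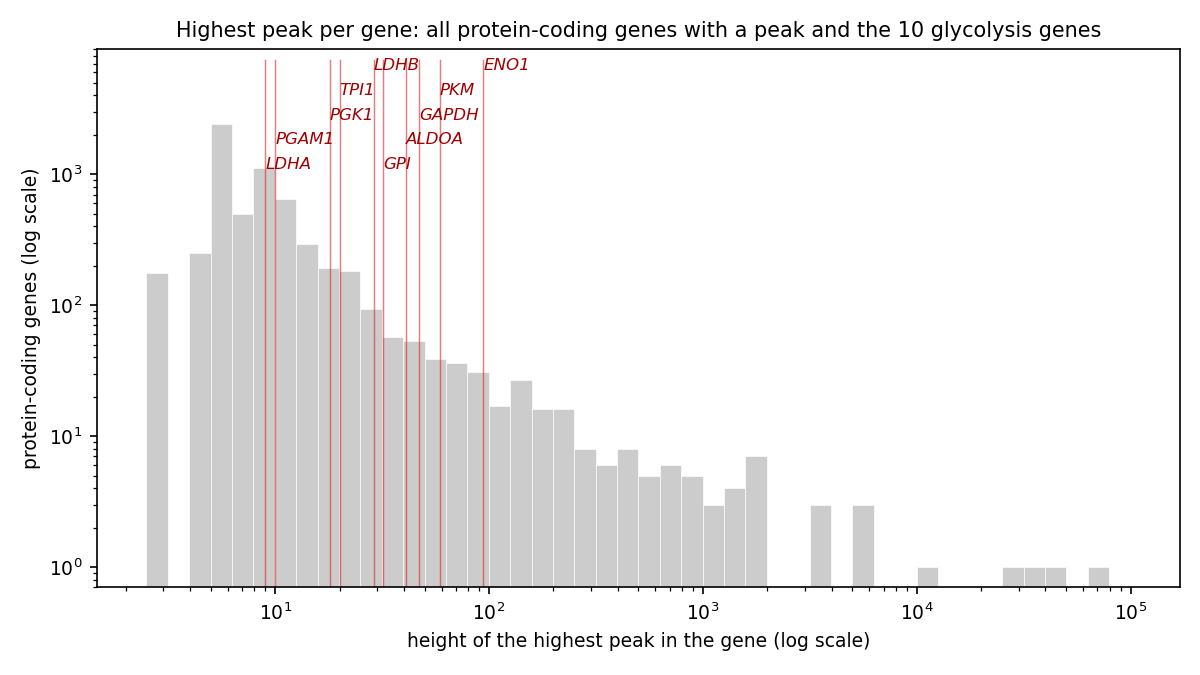
Number of protein-coding genes (vertical axis, log scale) by the height of their highest listed peak (horizontal axis, log scale), with a line for each of the 10 glycolysis genes. The 10 genes lie between 9 and 94, all above the median of 7, and well below the far right tail of the list.

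The first steps of the pathway rearrange and split the sugar. GPI, which turns glucose 6-phosphate into fructose 6-phosphate, had 4 peaks on chromosome 19 with heights of 8, 13, 18 and 32 from the 5' to the 3' end. They lay in the 5' UTR, in coding exons 11 and 17 of 17 and in the 3' UTR. The highest, of 32, was at chr19:34891176-34891182 on the plus strand of hg19. Heights in GPI thus became larger toward the 3' end, although the intervals of neighbouring peaks overlapped (21.9 to 45.2 for the highest).

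ALDOA, the aldolase that cuts fructose 1,6-bisphosphate into a pair of smaller sugars, had 9 peaks on chromosome 16. From the 5' end their heights were 14 in the 5' UTR, 41 in intron 1 of 8, 19 in coding exon 2, 13 in exon 3, 16 in exon 6, 22 in exon 7, 24 in exon 8, 35 in the 3' UTR and 21 at the transcript end. The tallest, at chr16:30077623-30077639, was the only peak among the 59 that the annotation placed in an intron. It lay 637 nt past the nearest annotated start site of ALDOA and its detailed label was a CpG stretch, not a repeat.

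All 9 ALDOA positions were also listed under 7 other genes of chromosome 16: SLX1A, SLX1B, SULT1A3, SULT1A4, the readthrough transcripts SLX1A-SULT1A3 and SLX1B-SULT1A4, and LOC606724. In the RefSeq gene table (GRCh38.p14) none of these overlaps ALDOA: 4 of them lie before it and 3 after it. Their PH0 was 0.06, against 0.68 for ALDOA. A further 4 positions in ALDOA, of heights 7 and 8 in coding exon 5, 7 in exon 9 and 7 in the 3' UTR, were listed under those 7 genes and not under ALDOA. The lowest peak listed under ALDOA itself had a height of 13. The same stretch of RNA therefore gave 9 or 13 listed peaks, depending on the gene a peak was called in.

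**Figure D2:**
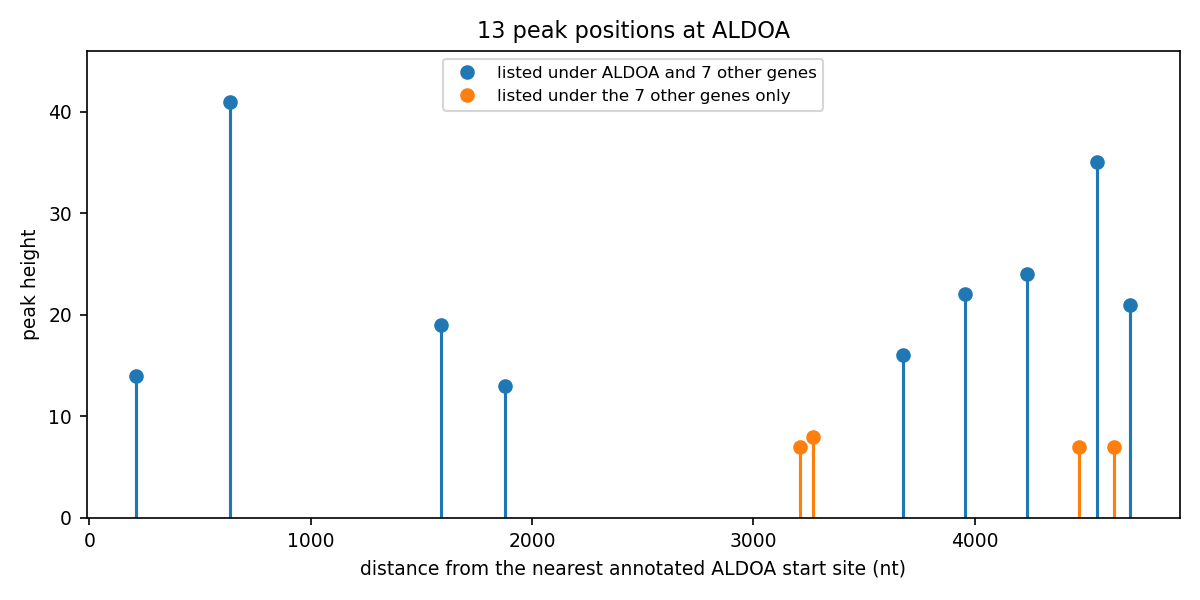
Height (vertical axis) of the 13 listed positions at ALDOA by distance from the nearest annotated ALDOA start site in nt (horizontal axis), coloured by the genes they were listed under. The 9 positions listed under ALDOA have heights of 13 to 41, and the 4 listed only under the other 7 genes have heights of 7 or 8.

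TPI1, the isomerase that links the products of aldolase, had 2 peaks on chromosome 12. That of height 16 lay 98 nt past the annotated start, with a start label for NM_000365. That of height 20 (chr12:6979675-6979684) carried a transcript-end label for NM_032641, which was not shown to mark the end of TPI1. It lay 2884 nt past the first peak, in a gene of 3529 nt on GRCh38.p14. Both carried start or end labels, so TPI1 was the only one of the 10 with no peak labelled as a coding exon or UTR. Its PH0 of 1.16 was the third highest of the 10, and its peaks stood 13.8 and 17.2 times above it. A further 3 positions whose nearest start site was that of TPI1, each of height 8, were called in USP5, the neighbouring gene upstream, and are not counted here.

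In the steps that harvest energy, the largest PH0 was that of GAPDH. GAPDH, the dehydrogenase that oxidises glyceraldehyde 3-phosphate, had 6 peaks on chromosome 12 with heights of 28, 47, 26, 43, 37 and 41 from the 5' to the 3' end. They lay in coding exons 3, 4, 5 and 6 of 9, with 2 in exon 8, and none was listed in a UTR. Heights within GAPDH spanned 26 to 47, and the intervals of the highest (34.5 to 62.5) and lowest peak overlapped. Its PH0 of 3.64 was the highest of the 10, and only 1.09% of protein-coding genes with a peak had a value as high. The peaks stood 7.14 to 12.9 times above that value, and 7.14 was the lowest ratio of the 59 peaks, while those of ENO1 began at 10.2. The lowest height listed in a gene went with its PH0 (below), so where its ratios begin is no measure of contact.

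PGK1, the kinase that makes ATP in the next step, had 6 peaks on chromosome X. Coding exons 1, 6, 8 and 9 of 11 each held a peak of height 9, and the 3' UTR held peaks of 13 and 18. The coding peaks of PGK1 were equal, and both 3' UTR peaks were higher, with an interval of 10.7 to 28.4 for the highest. The interval of each coding peak (4.12 to 17.1) overlapped those of both 3' UTR peaks. A height of 9 was the median lowest listed height of the 547 genes with a PH0 from 0.2 to 0.5, including PGK1. PGAM1, the mutase that moves the phosphate group, had 2 peaks on chromosome 10, of heights 10 and 8, both in the 3' UTR in exon 4 of 4. No coding peak was listed in PGAM1.

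ENO1, the enolase that makes phosphoenolpyruvate, had the most peaks and the highest one. Its 12 peaks on the minus strand of chromosome 1 had heights of 57, 16, 25, 17, 38, 19, 28, 40, 39, 24, 42 and 94 from the 5' to the 3' end. The highest, of 94 (76 to 115), lay at position 8921119 with a transcript-end label, and 42 was measured in the 3' UTR nearby. The peak of 57 at the 5' end, at position 8938665, carried the start-site label of ENO1-AS1, the antisense gene, but lay on the strand of ENO1. Of the 12 peaks, 6 were labelled as coding exons, with heights of 16 to 40. ENO1 was thus tallest near the ends of the gene, and no coding peak reached the heights of the outermost peaks.

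A pair of ENO1 peaks, of heights 38 and 19, were labelled for MIR6728, a microRNA gene within ENO1. Its mature strands are shown because its labels could be read as binding to the microRNA, with the seed (bases 2 to 8) in capitals, from RefSeq on GRCh38.p14:
hsa-miR-6728-5p: uUGGGAUGguaggaccagagggg
hsa-miR-6728-3p: uCUCUGCUcugcucuccccag
The peaks lay 623 nt before and 234 nt past the annotated start of its 89-nt hairpin. Of the 9 ENO1 peaks whose nearest start site was that of MIR6728, 0 lay inside the hairpin. These peaks were therefore counted with ENO1.

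PKM, the pyruvate kinase that releases ATP and pyruvate, had 9 peaks on the minus strand of chromosome 15. Coding exons 2, 3, 4, 6 and 8 of 11 held heights of 19, 18, 21, 20 and 11, a further 2 coding peaks held 18 each, the 3' UTR held 23, and the transcript end held 59 (44.9 to 76.1). The 7 coding peaks of PKM lay in a narrow range, and the peak at the end of the transcript, at position 72491417, was higher than any of them. PKM is spliced into the M1 and M2 isoforms, which use alternative versions of exon 9, and M2 is the form known for embryonic and proliferating cells. All PKM exon and 3' UTR labels but 1 were for the transcript NM_182471, which encodes M1. The exception, of height 18 at position 72494889, was labelled exon 9 of 11 of NM_002654, which encodes M2, and no peak was listed in exon 9 of NM_182471. With 1 peak of height 18 (interval 10.7 to 28.4) and no listing of lower heights, this describes where a peak passed and is no measure of isoform use.

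Lactate dehydrogenase, which interconverts pyruvate and lactate, is built from the LDHA and LDHB subunits. LDHB had 7 peaks on the minus strand of chromosome 12 with heights of 19 at the start site, 29, 27, 15, 16 and 18 in coding exons 2, 4, 5, 6 and 7 of 8, and 24 in the 3' UTR. LDHA had 2 peaks on chromosome 11, of height 7 in coding exon 2 and of height 9 in exon 6 of 7. All 7 LDHB peaks were higher than both LDHA peaks. However, among the 228 genes with a PH0 from 0.5 to 1, which include LDHB, the lowest listed height was 9. A peak as low as the 7 of LDHA was thus not listed in that range, and the contrast of low peaks is no measure of contact. The interval of the highest LDHB peak (19.4 to 41.6) did not overlap that of the highest LDHA peak (4.12 to 17.1). PH0 was 0.55 for LDHB and 0.16 for LDHA, so LDHA also had the lower expected height. Its peaks stood 43.8 and 56.2 times above it, against 27.3 to 52.7 times for LDHB. Among protein-coding genes the lowest listed height was 7 at a PH0 of 0.16 and 10 at a PH0 of 0.55. The ratios of the 2 genes therefore start from unlike floors and are no measure of contact either. The mRNA levels of the 2 genes were not measured here.

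The LDHB start peak was 1 nt wide and lay 1 nt past the annotated start on hg19, the closest to a start site of the 59. The sequence around the RefSeq start of LDHB on GRCh38.p14, chr12:21657828-21657857 on the minus strand, is shown for this reason, with the transcribed bases in capitals:
LDHB start: gccccctcctccctcCTTGCAGAGCCGGCG
The start on hg19 was not aligned to that of GRCh38.p14, so the peak is not marked in it.

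**Figure D3:**
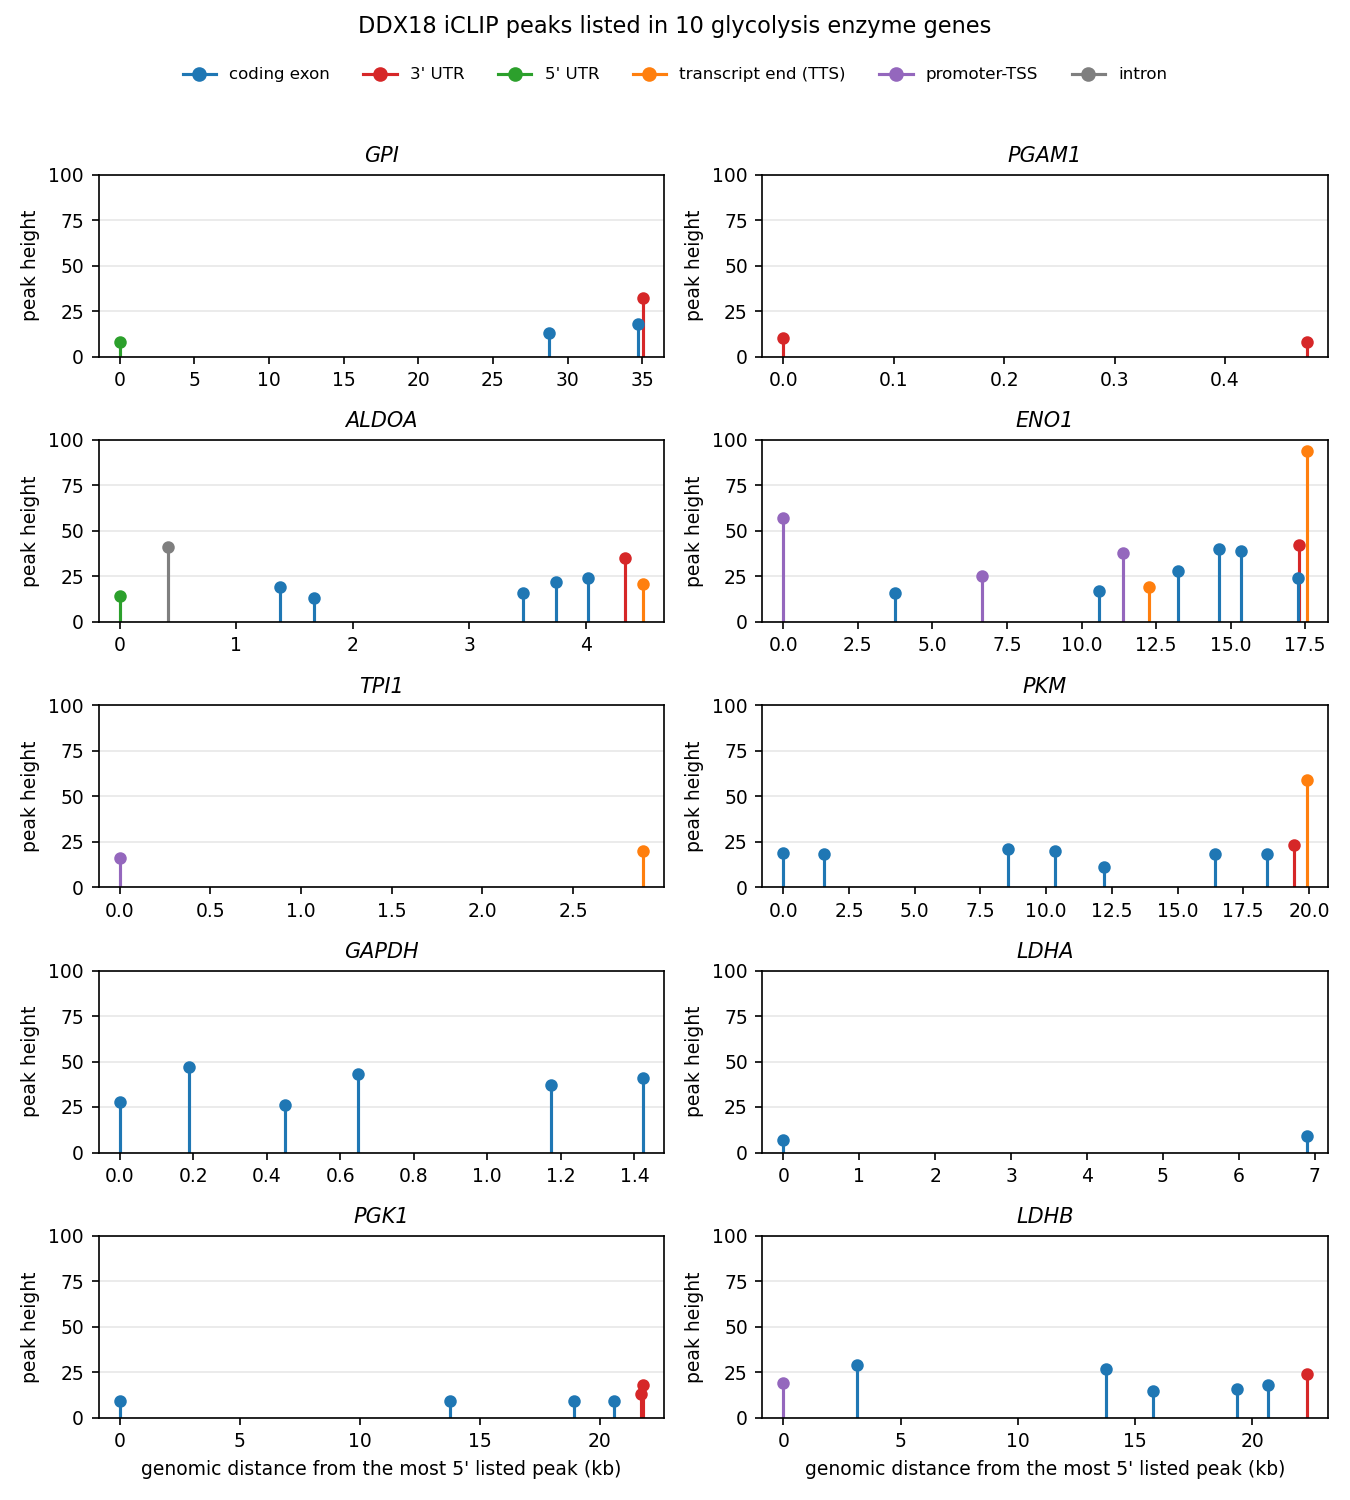
Height (vertical axis) of each of the 59 listed peaks by genomic distance in kb from the most 5' listed peak of the gene (horizontal axis, its own scale per gene), coloured by annotated region. ENO1 and PKM have their highest peaks, of 94 and 59, at the 3' end, whereas the 6 GAPDH peaks are all in coding exons between 26 and 47.

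Ordered by the highest peak, the genes ran ENO1 (94), PKM (59), GAPDH (47), ALDOA (41), GPI (32), LDHB (29), TPI1 (20), PGK1 (18), PGAM1 (10) and LDHA (9). The Poisson intervals of every pair of neighbours in this order overlapped, those of ENO1 and PKM only at their edges (76 and 76.1), and an overlap of intervals is no test of a difference. Those of ENO1 (76 to 115) and GAPDH (34.5 to 62.5) did not overlap. A height is not summed over the mRNA, but the highest of several peaks, like their number, can grow with length, and no correction for length was made. In 6 of the 10 genes (ENO1, PKM, GPI, TPI1, PGK1 and PGAM1) the highest peak was in the 3' UTR or carried a transcript-end label. Among the 2944 protein-coding genes with at least 2 peaks this was so for 27.4%. This split was examined after the positions had been seen, and it was not tested. It counts TPI1 by an end label for NM_032641, which was not shown to be its own.

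By region, coding exons held 37 of the 59 peaks (62.7%, exact Clopper-Pearson 95% interval 49.1 to 75), from 8 genes. Over all 15599 peak positions of protein-coding genes the share was 47.8%. The 3' UTR held 9 peaks (15.3%, against 18.7%), transcript ends 5 (8.47%, against 5.41%), promoter-TSS 5 (8.47%, against 4.3%), the 5' UTR 2 (3.39%, against 2.31%) and introns 1 (1.69%, 0.0429 to 9.09, against 18%). The start and end counts include the ENO1 peaks of 38 and 19 labelled for MIR6728 and that of 57 labelled for ENO1-AS1. They also include the TPI1 peak of 20 labelled for NM_032641. Intronic peaks made up a smaller share of these 59 than of the list. Peaks of a gene are not independent of each other, and the intervals cover counting error only. At least 1 coding peak was listed in 8 of 10 genes, against 15.8% of protein-coding genes. A peak labelled 3' UTR or transcript end was listed in 8 of 10, TPI1 only through the label for NM_032641, against 11.9%. Both backgrounds count genes without any peak. Of the 6218 protein-coding genes with a peak, 3176 had a coding peak and 2382 a 3' UTR or transcript-end peak. The contrast therefore repeats in part that all 10 genes had a peak.

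The 59 peaks were narrow, with a median width of 3 nt (range 1 to 29), against 13 nt for protein-coding genes. Width falls with height in the list. At heights of 20 to 39 the median was 3 nt for the 20 peaks of these genes and 3 nt for 1046 others, and at 40 to 99 it was 2 nt for both. At 10 to 19 it was 3.5 nt over 22 peaks against 7 nt over 4044 others, and at 5 to 9 it was 4 nt over 8 peaks against 17 nt over 9327. The high peaks of the glycolysis genes were thus as narrow as others of their height, and the low ones had smaller medians, which was not tested. The 8 peaks of height 5 to 9 include the 4 coding peaks of PGK1 and the widest of the 59, in LDHA. The others were not matched for region or PH0.

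The lowest height listed in a gene went with its PH0. PH0 ran from 0.11 in PGAM1 to 3.64 in GAPDH, with a median of 0.545, against 0.05 over protein-coding genes with a peak. The lowest listed height was 8 in PGAM1, 7 in LDHA, 9 in PGK1, 8 in GPI, 11 in PKM, 15 in LDHB, 13 in ALDOA, 16 in TPI1, 16 in ENO1 and 26 in GAPDH, in order of rising PH0. Lowest height and PH0 had a rank correlation of 0.95 over the 10 genes and of 0.78 over 6218 protein-coding genes, which are not independent replicates. The list holds only peaks called significant, and how far that sets this relation was not tested. For the highest height the rank correlation with PH0 was 0.73 over the 10 genes and 0.72 over the 6218. The number of peaks went with PH0 less closely, with a rank correlation of 0.51 over the 10 genes and of 0.32 over the 6218. A peak of height 15, listed in LDHB, lies below the lowest height listed among 66 genes with a PH0 from 2 to 5, which was 17. The absence of such a low peak in GAPDH is therefore no measure of less contact there. Among the 89 genes with a PH0 from 1 to 2, which include TPI1 and ENO1, the lowest listed height was 12.

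**Figure D4:**
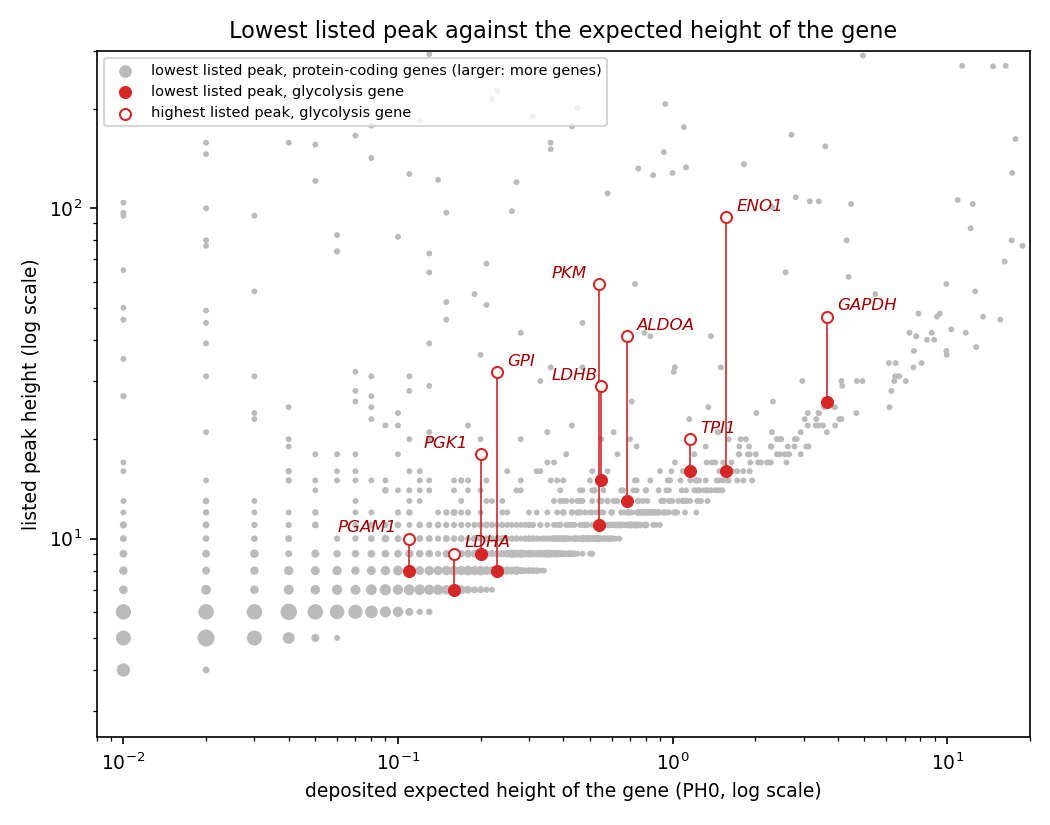
Lowest listed peak height (vertical axis, log scale) against the deposited PH0 (horizontal axis, log scale) for protein-coding genes in grey, with the lowest and highest peak of each glycolysis gene joined in red. The lowest height climbs with PH0 from 8 in PGAM1 to 26 in GAPDH. Of the protein-coding genes with a peak, 489 are not drawn, 458 of them because their PH0 is listed as 0 and the rest because they lie beyond the axes.

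Set beside genes of like PH0, the 10 did not all stand high. GAPDH, with a highest peak of 47, was under the median of 73.5 over the 66 genes with a PH0 from 2 to 5. From 1 to 2 (89 genes, median 31), ENO1 with 94 was above and TPI1 with 20 below. From 0.5 to 1 (228 genes, median 19), PKM with 59, ALDOA with 41 and LDHB with 29 were all above. From 0.2 to 0.5 (547 genes, median 12), GPI with 32 and PGK1 with 18 were above. From 0.1 to 0.2 (828 genes, median 9), PGAM1 with 10 was 1 above and LDHA with 9 equalled the median. These ranges were chosen after the values had been seen, and each median includes the glycolysis genes. Over the 59 peaks the median ratio of height to PH0 was 33.3, against 100 over entries of protein-coding genes, leaving out 614 entries whose PH0 is listed as 0. The median lowest listed height was 6 in genes with a PH0 from 0.05 to 0.1 and 11 in those from 0.5 to 1. Genes of low PH0 thus enter the list only at high ratios, and the contrast with 100 is no measure of less contact. PH0 is given to 2 decimals, so ratios of genes with a low PH0 are coarse.

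The deposited p-value gave less order than the height. It stood at 1e-100, the lowest value of the list, for 22 of the 59 peaks, in ALDOA, LDHB, PGK1 and PKM. In ENO1 the smallest was 8.63e-10, shared by 9 of its 12 peaks, and in GAPDH it was 1.88e-10, shared by 4 of 6. The highest peak of the 10 genes, in ENO1, thus had a larger deposited p than the peak of 13 in PGK1. The largest of the 59 was 0.022, for the LDHA peak of height 7, and the GPI peak of height 8 had 0.0199.

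Glycolysis mRNAs have many near-identical copies in the genome, so reads from them can be hard to place. The gene table holds 104 pseudogenes named for the 10 genes, 65 of them for GAPDH, 13 for PGAM1, 6 for LDHA and none for GPI. Of the 104, 0 had a peak called in them and 0 were the nearest gene of a peak. Whether the gene models behind the list held these copies is not given, so these counts do not show where reads were placed. How reads that match several places were treated is not given in the sources used here, and its effect on heights was not tested.

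Of 25 other glycolysis enzymes, 8 had a peak (32%, 14.9 to 53.5), with a median highest peak of 7.5, close to the 31.0% and the median of 7 over protein-coding genes. HK1, a hexokinase, which traps glucose in the cell, led with 6 peaks and a highest of 16 in coding exon 6 of 21. ENO2, the neuronal enolase, had 2 peaks and a highest of 13, and PFKP, a phosphofructokinase, had 3 and a highest of 10. No peak was listed in ALDOC, PGK2, PGAM2, ENO3, PKLR, LDHC or PFKL. The highest peak of ENO2 was well below that of ENO1 (13 against 94), with a PH0 of 0.3 against 1.57.

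Of 11 genes of glucose and lactate transport, 5 had a peak (45.5%, 16.7 to 76.6, against 31.0%), with a median highest peak of 72 over those 5 and a range of 12 to 99. BSG, the chaperone of the lactate transporters, had 8 peaks and a highest of 99 in the 3' UTR. SLC2A3, a glucose transporter, had 20 peaks with a highest of 87 in coding exon 10 of 10, and SLC2A1, another, had 13 with a highest of 72 in the 3' UTR. Among 15 regulators of the flux, 7 had a peak (46.7%), none above the height of 8 found in HIF1A, MYC and PDP2.

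Of 24 genes of pyruvate entry and the citric acid cycle, 14 had a peak (58.3%, 36.6 to 77.9, against 31.0% of protein-coding genes), with a median highest of 7 that equals the median over protein-coding genes with a peak. SUCLA2 led with 25 in intron 6 of 10, followed by MDH2 with 21 in the 3' UTR, and DLAT and CS with 9. Of 9 pentose phosphate genes, 6 had a peak (66.7%, 29.9 to 92.5), with a median highest of 11. TKT, the transketolase, had 15 peaks and a highest of 40, PGD had 6 and a highest of 15, and H6PD and TALDO1 reached 11. Of 7 gluconeogenesis genes, 2 had peaks (28.6%), G6PC3 (24) and PCK2 (16).

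The labelled cell type was checked on the same list. Of 12 stem cell identity genes, 10 had a peak (83.3%, 51.6 to 97.9, against 31.0% of protein-coding genes). The highest were in LIN28A with 36, L1TD1 with 28 and DNMT3B with 23, while POU5F1 and SOX2 had none listed. Of 10 genes taken as fibroblast markers, for the feeder layer, 5 had a peak (50%, 18.7 to 81.3, against 31.0%). The highest were in THY1 with 39, COL6A1 with 26 and COL1A1 with 17, and VIM, COL3A1, S100A4, DCN and LUM had none. Whether the stem cells themselves express these genes was not examined, so their peaks were not traced to either cell type. Reads of the mouse feeder cells were not told apart from human reads in the list, and their part in the glycolysis peaks was not tested.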

How the data were processed

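Both samples enter through 1 peak list. Per the file headers, the authors annotated peaks with annotatePeaks.pl (HOMER) on hg19, and FastQC 0.10.1 and BWA, with no roles given, are listed in the submitters' processing notes. Not given in the sources used here are the peak caller, how duplicates were handled and what made a peak significant. The authors deposited the height as an unscaled whole-number signal. PH0 and the p-value in each peak's name are also the authors' deposited values.

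Peaks were counted in the gene named in the peak. HOMER labels stretches around transcript starts and ends (promoter-TSS, TTS) before exons and introns. Of entries whose gene strand was known, 99.8% lay on it. Deposited distances of minus-strand peaks had the opposite sign, and it was turned here. Gene names, biotypes and copies came from RefSeq (GRCh38.p14), to which all 10 genes matched. No test was run: counts, medians and exact intervals stand beside all protein-coding genes. Python 3.11.15, pandas 2.3.3 and scipy 1.17.1 were used, and the counting was checked on simulated data. The members and lists were chosen with earlier results of these data known. All 10 genes are named with all peaks, and up to 3 genes, or ties, from each other list. Alternatives were the nearest gene, stricter p-values and heights, exonic peaks, and positions called in 1 gene.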

Additional observations from a re-analysis of the deposited data

How the results depend on the processing

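No paired analysis was possible because the list has no value per sample, and no replicate could be left out. Over the 5 alternatives the number of peaks was 43 to 51 in place of 59, the median ratio of height to PH0 30.9 to 43.8 in place of 33.3, and the coding share, in the 4 where it was computed, 57.1% to 67.4% in place of 62.7%. Of the 10 genes, 10 had a peak with the nearest start site or with p-values up to the list median, and 9 in each other setting: LDHA lost its peaks at a height of 10 or more, TPI1 with coding exons and UTRs only, and ALDOA once positions also called in another gene were left out. Assigning peaks to the nearest start site put the median highest peak at 19.5 in place of 30.5, and in that setting ENO1 kept 2 of 12 peaks and PKM 2 of 9. The share of protein-coding genes with a peak was 29.3% with the nearest start site, 17.3% with p-values up to the median, 8.78% at heights of 10 or more, 21% with coding exons and UTRs only, and 29.6% without shared positions. Reads per sample are unknown, so how depth limits the list cannot be given.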

Other observations

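Peaks listed under several genes are not confined to ALDOA. Over the list, 573 of 16095 positions were called in 2 genes or more and 44 in 7 or more, of which 13 lie at ALDOA. The 7 genes that share the ALDOA peaks have the same 32 positions, whose nearest start sites include those of MAZ, MVP, PPP4C, PRRT2, QPRT, TBX6 and C16orf54. Counts of peaks in SLX1A, SULT1A3 and their relatives therefore hold peaks at ALDOA.

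The deposited distance to the start site was above 0 for 97% of plus-strand entries whose nearest start was that of the called gene, and for 3.12% of minus-strand ones.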
